A study of Mus musculus with 6 samples.

Results

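The genes described here are 30 genes that fell in expression after dihydrotestosterone (DHT) in mouse granulosa cells. The study tied each to a distal enhancer by published chromatin contact data and by H3K27me3 signal there, not by a called peak. These genes were chosen by measured values of this study: a fall in RNA-seq after DHT, and a negative correlation over 6 samples. The correlation was between H3K27me3 in a linked enhancer region and expression of the gene. The methods give a cutoff on the Pearson coefficient and name no p-value for it, so the links are candidates. The methods describe separate cell pools for RNA-seq and ChIP-seq, and how their samples were paired is not stated. The list was deposited as 33 symbols, of which 3 are not described here, and the 8 deposited gene lists together hold 3787 different symbols. A companion list holds 66 genes that rose after DHT and were linked to enhancers in the same way, and it shares 0 genes with the 30. That expression fell, and that it was negatively correlated with the mark at the linked regions, was therefore set by the choice of genes and is no result. The choice also favours more H3K27me3 signal in DHT than in control at the linked regions of the 30 genes. For the genes that rose it favours the reverse.

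The samples were primary granulosa cells from wild type C57BL/6J mice 8 to 9 weeks old. There were 6 ChIP-seq samples with an antibody to H3K27me3, 3 cultured with no agent added (control) and 3 given DHT at 25 nM for 24 h. Per the methods, cells collected from many mice were plated in 6 dishes, 3 for each group; whether dishes share animals is not stated. The values used here are 1 peak list per group, called on mm9 and taken as a pool of its 3 samples, and lists of gene symbols without values. Depth per sample is unknown, no error between replicates can be given, and no difference between control and DHT was tested. Since these files hold no expression level, neither the fall of the 30 genes nor the cell type could be checked by level. Of 9 granulosa cell marker genes, Fshr was in the gene body lists of both groups and Cyp19a1 in that of control, of 2 endothelial markers Pecam1 was in both lists, the immune marker Ptprc was in both, and of 2 theca cell markers 0 were listed.

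Granulosa cells surround the oocyte, answer follicle-stimulating hormone, convert androgens to estrogens and signal to the theca layer outside the follicle. H3K27me3 is laid down by Polycomb repressive complex 2, whose catalytic subunit is EZH2, and is removed by demethylases such as JMJD3. In many cell types it covers promoters and bodies of silent developmental genes. At distal enhancers it marks elements that are inactive or poised. An enhancer can lie far from the gene it acts on, so a gene may be linked to a marked region without carrying the mark itself.

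By function the genes fell into 6 groups. There were 5 secreted or membrane-bound ligands (Ihh, Vegfd, Angpt2, Dlk1 and Cxcl12) and 3 receptors (Unc5b, Gcgr and Ackr3). A group of 5 acts in redox control and detoxification (Nqo1, Hmox1, Gsta3, Adh7 and Nxnl2). Matrix proteins and extracellular proteases gave 4 genes (Nid2, Plau, Acan and Trabd2b), and proteins best known from neurons gave 5 (Slc6a4, Asic4, Slitrk4, Otof and Gdap1). The other 8 were Cap2, Stard8, Tbx18, Ass1, Naip1, Bpifb4, Mro and Rian. In all, 29 were protein-coding and 1, Rian, is a long noncoding RNA. They lay on 16 chromosomes, with 3 on the X chromosome (Stard8, Vegfd and Slitrk4).

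The first question was whether these genes themselves carried H3K27me3 in the gene body. The control gene body list held Cap2, a protein that binds actin and adenylyl cyclase, and Slitrk4, a synaptic adhesion protein. The DHT gene body list held Slc6a4, the serotonin transporter. No gene was in both lists, and with 2 and 1 listed genes nothing is read from that. Of the 30, 27 were in neither these lists nor the promoter lists. The control list, of 3144 symbols, thus contained 2 of the 30 genes (6.67%, 95% Wilson interval 1.85 to 21.3%), where 11.9% of 26220 curated RefSeq symbols were listed. The DHT list, of 1146 symbols, contained 1 of the 30 (3.33%, interval 0.591 to 16.7%), against 4.36% of all symbols. Both intervals include the share of all genes. Among the 66 genes that rose, 10 (15.2%) were listed in control and 5 (7.58%) in DHT. Taking both lists together, 3 of the 30 (10%), 10 of the 66 (15.2%) and 13.7% of all symbols were listed. These intervals cover counting error only, and with 30 genes a share as high as that of the genes that rose lies inside them.

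**Figure D1:**
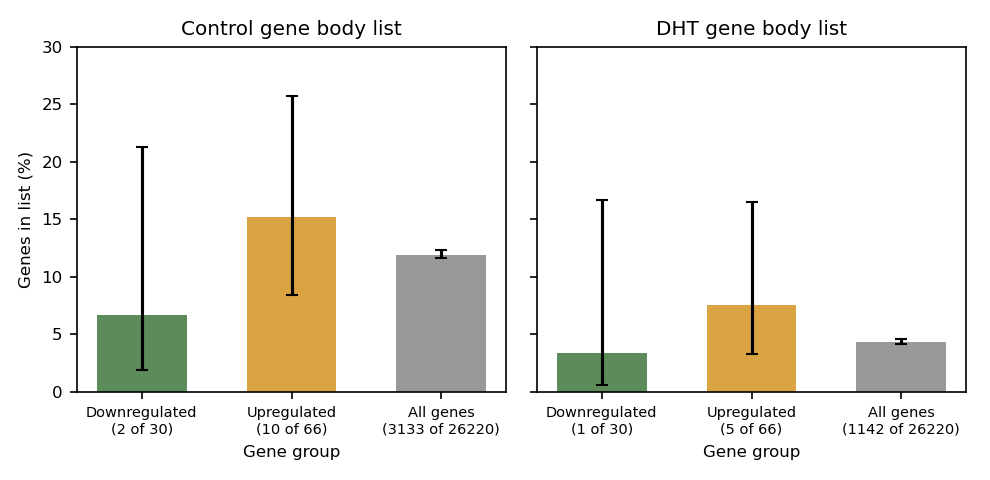
Share of genes (percent) in the control (left) and DHT (right) gene body lists, for the 30 downregulated enhancer-linked genes, the 66 upregulated ones and all curated RefSeq symbols. Bars are shares and whiskers are 95% Wilson intervals, which cover counting error only; the whiskers of the 30 genes, 1.85 to 21.3% and 0.591 to 16.7%, enclose the share of all genes.

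None of the 30 was in a promoter list. The control promoter list held 160 symbols and the DHT list 55, or 0.603% and 0.206% of all symbols. A count of 0 among 30 genes allows a share of up to 10%, so a share like that of all genes was not detectable with this number. Of the 66 genes that rose, 0 were in either promoter list as well. The authors also listed 15 downregulated genes whose body a peak overlapped, and this list held Cap2, Slitrk4 and Slc6a4. These 3 make up 20% of that list and 10% of the 30 genes, beside 0.0572% of all symbols. Both lists were chosen for a fall in expression, so nothing is read from this overlap, and the number of such genes in the study's text is not that of the deposited list. The corresponding list of 22 upregulated genes held 0 of the 30.

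**Figure D2:**
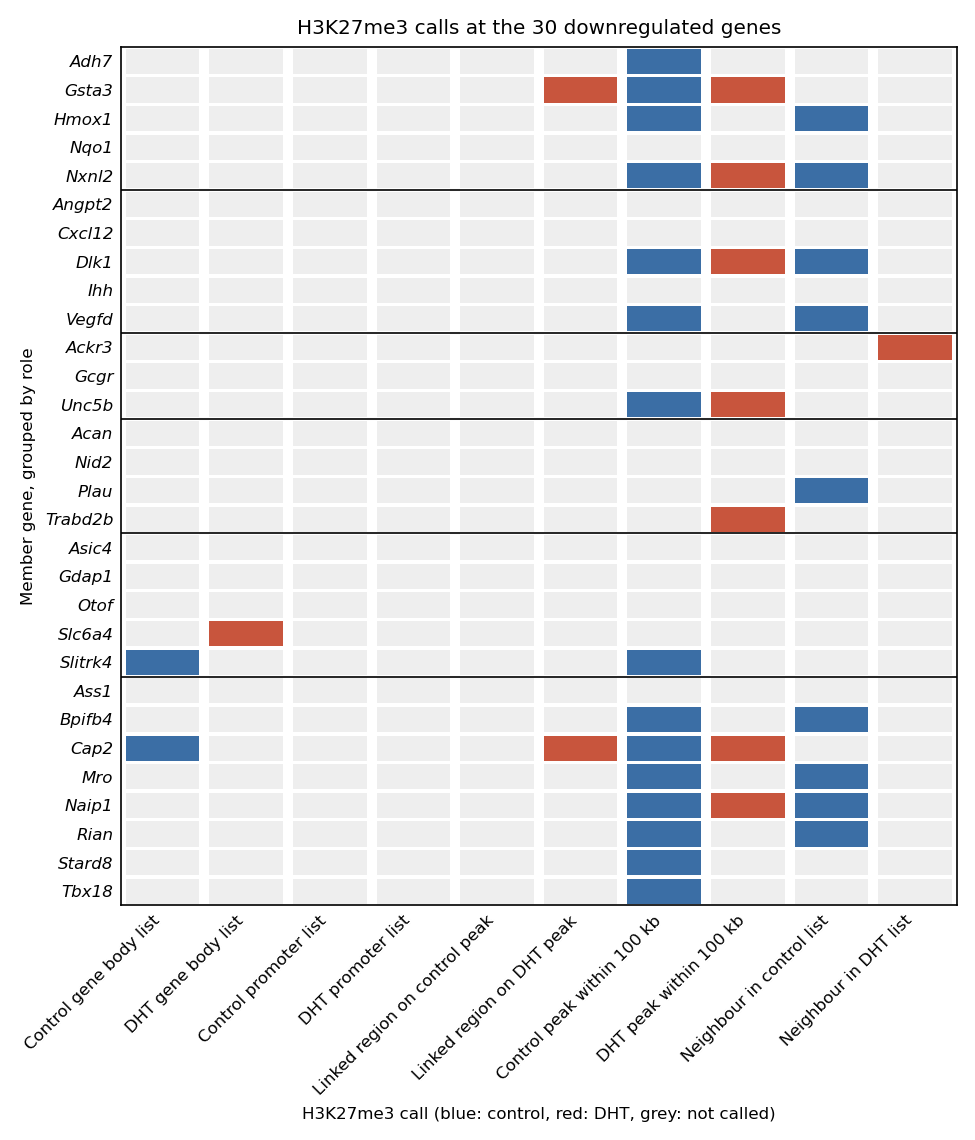
H3K27me3 calls for each of the 30 genes, in rows grouped by role (from the top: redox and detoxification, ligands, receptors, matrix and proteases, neuronal proteins, other). Filled cells are calls in control (blue) or DHT (red), grey cells are no call, and columns give the gene body and promoter lists, peaks at or within 100 kb of the linked enhancer region, and the nearest protein-coding neighbour in a gene body list; the promoter columns are empty and the gene body columns hold 3 calls.

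A long gene has more room for a peak, so the span of each gene was considered. In GRCm38.p6 the 30 genes spanned 6.4 kb (Ihh) to 208.4 kb (Trabd2b), with a median of 28.8 kb. The median was 17.7 kb for all protein-coding genes, 98.0 kb for the control gene body list and 129.4 kb for the DHT list. The 30 genes were thus shorter by the median than genes of either list. There were 10 of the 30 in each of 3 classes of span. Among the 10 under 15 kb, Slitrk4 (12.5 kb) was in the control list, where 1.36% of all protein-coding genes of that class were listed. From 15 to 50 kb, Slc6a4 (33.7 kb) was listed in DHT (2.4% of all) and 0 were listed in control (8.98% of all). At 50 kb or more, 1 of 10, Cap2 (148.4 kb), was listed in control and 0 were listed in DHT. The shares of all protein-coding genes in this class were 43.5% and 17.3%. This class has no upper limit and reaches 2390.4 kb among all protein-coding genes, so length was not matched and no difference is read. The unlisted genes of this class included Trabd2b, Otof (95.7 kb), Stard8 (71.8 kb), Unc5b (69.0 kb), Acan (61.9 kb) and the noncoding Rian (57.8 kb).

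**Figure D3:**
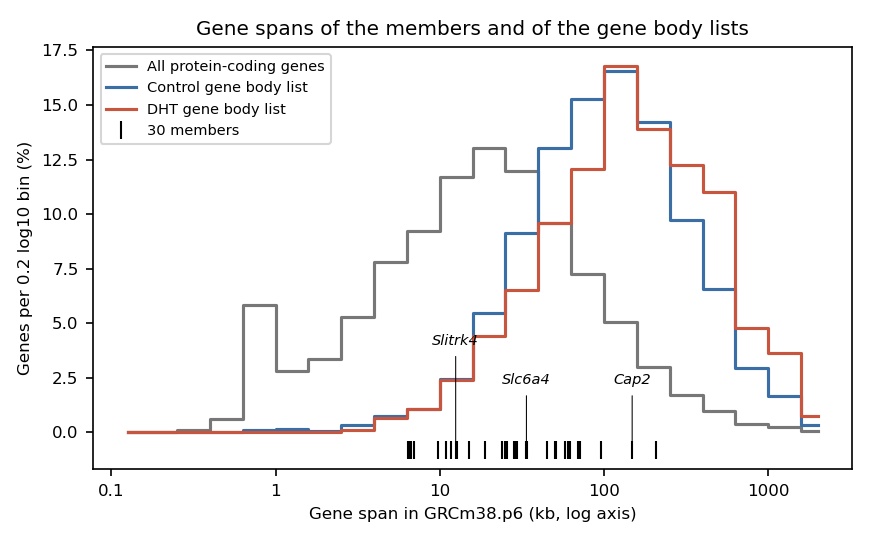
Distribution of gene span (kb, log axis) as the percent of genes per bin, for all protein-coding genes (grey), the control gene body list (blue) and the DHT gene body list (red). Black ticks under the curves are the 30 genes, which run from 6.4 to 208.4 kb; Slitrk4 at 12.5 kb, Slc6a4 at 33.7 kb and Cap2 at 148.4 kb are the 3 that were in a gene body list.

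For 20 of the 30 genes a promoter sequence (250 bases before to 50 after the start, RefSeq, GRCm38.p6) was at hand. The 10 without one were Hmox1, Nid2, Plau, Gdap1, Angpt2, Asic4, Slitrk4, Otof, Mro and Trabd2b. Slitrk4, the third gene with a gene body call, is thus not shown. The promoters are shown for Cap2 and Slc6a4, which had a peak in the gene body but not the promoter, and for Gsta3 and Nqo1, a pair of detoxification genes of which Gsta3 had a peak at its linked region. Capitals mark the antioxidant response element core, TGACNNNGC on either strand, and runs without capitals hold no match to it. In order they lie at chr13:46501653-46501952 (plus strand), chr11:76998347-76998646 (plus), chr1:21240335-21240634 (plus) and chr8:107403156-107403455 (minus).
Cap2: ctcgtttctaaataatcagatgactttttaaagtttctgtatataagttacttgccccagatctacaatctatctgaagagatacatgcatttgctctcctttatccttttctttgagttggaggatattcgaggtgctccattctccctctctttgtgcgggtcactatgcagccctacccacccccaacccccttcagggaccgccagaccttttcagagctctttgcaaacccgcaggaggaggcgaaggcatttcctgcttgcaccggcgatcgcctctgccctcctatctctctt
Slc6a4: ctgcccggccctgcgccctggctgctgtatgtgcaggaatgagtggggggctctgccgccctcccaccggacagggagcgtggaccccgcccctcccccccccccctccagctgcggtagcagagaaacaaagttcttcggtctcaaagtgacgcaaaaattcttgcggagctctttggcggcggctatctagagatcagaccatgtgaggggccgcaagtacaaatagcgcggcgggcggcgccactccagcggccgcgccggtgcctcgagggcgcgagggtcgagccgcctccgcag
Gsta3: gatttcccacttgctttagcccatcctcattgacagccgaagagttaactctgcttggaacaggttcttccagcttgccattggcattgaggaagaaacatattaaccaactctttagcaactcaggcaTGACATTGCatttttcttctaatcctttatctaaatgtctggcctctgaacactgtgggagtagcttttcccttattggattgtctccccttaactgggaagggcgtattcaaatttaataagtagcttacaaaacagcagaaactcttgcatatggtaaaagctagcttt
Nqo1: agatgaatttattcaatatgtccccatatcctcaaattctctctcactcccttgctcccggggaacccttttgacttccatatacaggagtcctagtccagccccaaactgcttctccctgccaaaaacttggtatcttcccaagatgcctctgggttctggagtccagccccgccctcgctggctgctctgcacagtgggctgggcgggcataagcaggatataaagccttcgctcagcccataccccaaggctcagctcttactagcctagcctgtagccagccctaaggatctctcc

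The Slc6a4 promoter held 28 CpG dinucleotides, that of Cap2 9, that of Nqo1 5 and that of Gsta3 2. CpG-rich promoters are the usual landing sites of Polycomb in other cells. Over the 20 promoters the CpG count ranged from 0 (Rian) to 36 (Unc5b) with a median of 9.0, beside a median of 7.0 over 32851 RefSeq promoters. Next to Unc5b, a dependence receptor for netrin, came Gcgr, the glucagon receptor (34), Acan, the matrix proteoglycan aggrecan (31), Ihh (30), Slc6a4 (28) and Ass1 (27). Of these 6 genes Slc6a4, in the DHT gene body list, was listed.

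The antioxidant response element core, bound by NRF2, was found in 2 of 20 promoters (10%), Gsta3 and Bpifb4, and in 12.4% of all. In Gsta3 it reads TGACATTGC and begins at position -121 from the start. The androgen receptor half-site AGAACA was found in Nxnl2 and Rian (10%, against 19.0% of all). The full androgen response element, 2 such half-sites inverted and 3 bases apart, was found in 0 of 20 and in 0.00913% of all. The hypoxia response core ACGTG was found in Ass1, Dlk1 and Naip1 (15%, against 19.6%). The cAMP response element TGACGTCA and AAGGTCA, a half-site of the granulosa cell factor NR5A1, were found in 0 of 20, and in 1.79% and 4.72% of all. All letters were searched on both strands. The full androgen response element contains the half-site, and the hypoxia core can share end bases with the cAMP response element. A match is a description of the letters in this window only.

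The next question was where the called peaks lie relative to the linked enhancer regions. These regions are the study's own, came from published chromatin contact data, and are taken here to be in mm9, the build of its ChIP-seq. A gene can have more than one, and distances are to the nearest. A gene with more regions is thus likelier to have a peak near one, and the number of regions was not matched. In control, 0 of the 30 genes had a linked region that overlapped a peak by at least 1 bp, which allows a share of up to 10%, beside 1.01% of all 99 enhancer-linked genes. In DHT 2 genes (6.67%), Cap2 and Gsta3, had one, which are the only such genes among the 99 (2.02%). Thus for 28 of the 30 no called peak of either group fell on a linked region. The correlation that chose these genes was computed from read signal, which was not used here. The peaks were called from the same ChIP-seq samples, so these counts are not independent of the choice. It favours signal in DHT at regions of the 30 and in control at those of the genes that rose. Nothing is therefore read from the difference between control and DHT or between the 30 and the 99.

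At Cap2 the DHT peak was chr13:46374374-46374648, 275 bp wide, with a fold enrichment of 4.35 over local background and a q-value of 0.00452. By fold enrichment it ranked 1641 of 3975 DHT peaks. A second DHT peak lay 9.7 kb from a linked region, at chr13:46384485-46385841 (4.0-fold). The nearest control peak was 34.7 kb away, at chr13:46409444-46409704 (3.63-fold, q-value 0.0113). Cap2 thus had 1 DHT peak on a linked region, and in control a peak in its gene body.

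At Gsta3, a glutathione transferase, the DHT peak was chr1:22092213-22092532, 320 bp wide, with a fold enrichment of 5.02 and a q-value of 0.000201. It ranked 558 of 3975. The nearest control peak lay 6.9 kb off at chr1:22100930-22102222 (1293 bp, 3.23-fold, q-value 0.0273) and ranked 12517 of 16345 control peaks. Fold enrichments are relative to the background of each pool and are not comparable between control and DHT. The DHT list had a median of 4.21-fold and the control list of 3.46-fold.

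Besides Gsta3, both Naip1 and Dlk1 had a control peak within 10 kb, which makes 3 of the 30 (10%), beside 7.58% of the genes that rose. A DHT peak within 10 kb was found for Cap2, Gsta3 and Naip1, also 3 (10%), beside 3.03% of the genes that rose. Naip1, a sensor of bacterial proteins, had one 1.4 kb away (3.28-fold, q-value 0.0319) and a DHT peak 7.2 kb away (4.52-fold, q-value 0.00232). Naip genes are near-identical copies, and only uniquely mapped reads were kept. Dlk1, an imprinted ligand related to Notch ligands, had a control peak 7.5 kb away (3.31-fold) and a DHT peak 28.2 kb away (4.54-fold).

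Within 100 kb of a linked region, 15 of the 30 genes (50%) had a control peak and 7 (23.3%) a DHT peak, beside 54.5% and 31.3% of all enhancer-linked genes. The genes that rose gave 56.1% and 33.3%. Peaks of both groups were found for 6 genes (Unc5b, Cap2, Nxnl2, Naip1, Gsta3 and Dlk1), of control alone for 9 (Hmox1, Stard8, Vegfd, Tbx18, Slitrk4, Adh7, Mro, Bpifb4 and Rian) and of DHT alone for Trabd2b. The other 14 had none, among them Nqo1, Ihh, Angpt2, Cxcl12 and Ackr3. In all, 28 control peaks (median 3.62-fold, range 3.12 to 5.0) and 11 DHT peaks (median 4.54-fold, range 3.88 to 6.23) lay within this distance. Of the 11 DHT peaks 1 overlapped a control peak, where 16.9% of all 3975 DHT peaks did. It was near Dlk1, at chr12:110715127-110716823 (3.88-fold), and the control peak was chr12:110715135-110715544 (4.66-fold). The DHT peaks with the highest fold enrichment were near Nxnl2 (6.23-fold, rank 62) and Unc5b (6.07-fold, rank 79). The highest control peak was near Mro (maestro; 5.0-fold, rank 208 of 16345).

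The median distance from a linked region to the nearest peak was 105.8 kb in control (1.4 to 489.0 kb) and 224.1 kb in DHT (0.0 to 1963.8 kb). The control peak was the nearer for 22 genes and the DHT peak for 8. Among the 66 genes that rose these counts were 50 and 16. The control list is the longer, with 16345 peaks against 3975, and the genes that rose also had smaller distances in control (median 85.8 kb, against 280.9 kb in DHT). The 8 genes with a nearer DHT peak were Cap2, Gsta3, Unc5b, Gcgr, Trabd2b, Nqo1, Cxcl12 and Ass1. For Cxcl12 the distances were nearly equal, 231.9 kb in control and 227.4 kb in DHT. Distances from other positions in the genome were not computed, so no distance here is read as unusually near or far.

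**Figure D4:**
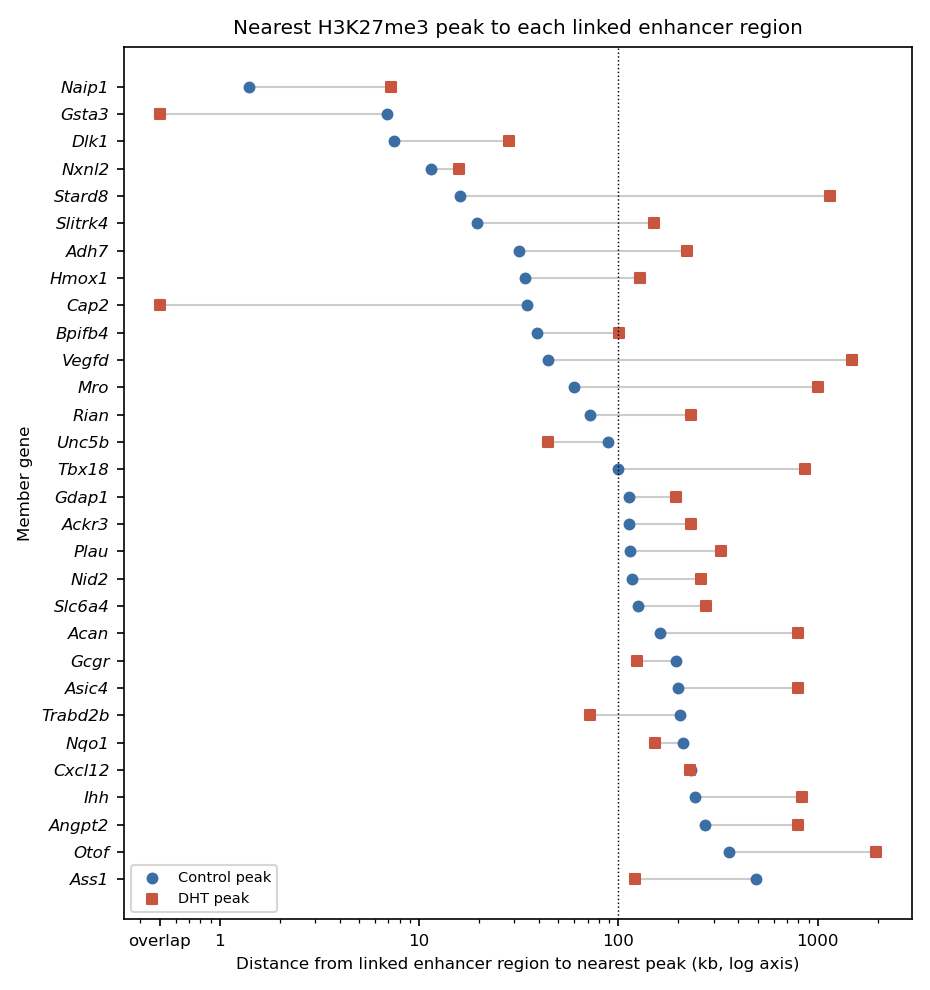
Distance (kb, log axis) from the linked enhancer region of each gene to the nearest control peak (blue circles) and DHT peak (red squares). Overlaps, which have no place on a log axis, are drawn at the left tick; the dotted line is 100 kb. Cap2 and Gsta3 have an overlapping DHT peak, and for 22 of the 30 genes the control peak is the nearer, beside 50 of the 66 genes that rose (not drawn).

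Among the ligands, control peaks lay nearest for Dlk1 (7.5 kb) and Vegfd, a growth factor for lymphatic vessels (44.3 kb). They lay farther off for Ihh, a hedgehog ligand through which granulosa cells signal to theca (241.8 kb), and for Cxcl12, a chemokine (231.9 kb). The same held for Angpt2, which modulates the TIE2 receptor of vessels (271.5 kb). DHT peaks lay 795.6 kb or more from the regions of Ihh, Angpt2 and Vegfd. Ihh and Asic4, a member of the acid-sensing channel family on the same chromosome, share 1 linked region and are not separate observations there. Of the receptors, Unc5b had both peaks within 100 kb (88.6 kb control, 44.3 kb DHT). Ackr3, which clears CXCL12, had them at 112.6 and 230.8 kb.

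The redox genes had a median distance of 31.8 kb to a control peak and 128.2 kb to a DHT peak. Hmox1, which degrades heme, had 2 control peaks within 100 kb, the nearest at 34.0 kb (3.6-fold), and its nearest DHT peak at 128.2 kb. Adh7, an alcohol and retinol dehydrogenase, had control peaks at 31.8 kb (4.24-fold) and 59.1 kb (3.12-fold), and its nearest DHT peak at 220.7 kb. Nxnl2, a thioredoxin-like protein, had peaks of both groups at 11.5 kb and 15.9 kb. Nqo1, a quinone reductase, had none within 100 kb. The matrix and protease genes had control peaks at 114.7 to 202.8 kb, and Trabd2b, a protease that cleaves Wnt proteins, had a DHT peak at 71.8 kb. By role, a control peak within 100 kb was found for 4 of 5 redox genes, 2 of 5 ligands, 1 of 3 receptors, 0 of 4 matrix and protease genes, 1 of 5 neuronal genes and 7 of 8 others. Over all enhancer-linked genes the share was 54.5%. The differences between roles were not tested, and the number of linked regions per gene was not matched. The neuronal proteins had control peaks at 19.5 kb (Slitrk4) to 358.2 kb (Otof, a calcium sensor for vesicle release).

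On the X chromosome the control peaks lay 16.1 kb (Stard8), 44.3 kb (Vegfd) and 19.5 kb (Slitrk4) from a linked region, and the DHT peaks 1152.9, 1487.4 and 151.6 kb. Slitrk4 had 2 control peaks within 100 kb (3.46-fold and 3.36-fold) besides its call in the control gene body list. Stard8, a protein with a lipid-binding START domain, also had 2 (3.62-fold and 3.22-fold). By fold enrichment the nearest control peaks of Stard8, Vegfd and Slitrk4 ranked 5913, 9077 and 8190 of 16345.

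The nearest protein-coding gene on each side was looked up in the gene body lists. In control 9 of 30 genes (30.0%) had a listed neighbour, beside 23.6% of all protein-coding genes. These were Hmox1 (Tom1), Nxnl2 (Spin1), Naip1 (Gtf2h2), Plau (Vcl), Vegfd (Pir), Dlk1 (Rtl1), Mro (Me2 and Mapk4), Bpifb4 (Bpifa6) and Rian (Rtl1). Dlk1 and Rian belong to the same imprinted domain and share the neighbour Rtl1. In DHT 1 gene (3.33%), Ackr3 with the neighbour Iqca, had one, beside 9.46% of all. None of these genes was itself in a gene body list.

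The other genes of the pathways and families of the 30, 113 in all, gave 20 (17.7%) in the control gene body list, beside 11.9% of all symbols. They gave 10 (8.85%) in the DHT gene body list, beside 4.36% of all, 0 in the control promoter list and 1 (0.885%) in the DHT promoter list, beside 0.603% and 0.206%. The pathways were picked by hand and the spans of their genes were not matched, so nothing particular to them is read from these shares.

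In the antioxidant pathway 3 of 15 further genes were listed: Nfe2l2, which encodes NRF2, and Slc7a11, the cystine transporter, in control and Hmox2 in DHT. Of 7 angiopoietin and VEGF genes, Angpt1 and its receptor gene Tek were listed in control and Flt1, a VEGF receptor, in DHT. Of 12 hedgehog genes, Smo, the transducer, was in both gene body lists, and Gli2 and Boc in that of control. Of 6 serotonin genes, Tph2 and Htr7 were in the control gene body list and Tph1, a serotonin-producing hydroxylase, in the DHT promoter list. Of 7 plasminogen genes, Plg was listed in control and Serpinb2, an inhibitor of urokinase, in DHT. Of 8 arginine and urea cycle genes, where Ass1 makes argininosuccinate, Arg2 and Cps1 were listed in control and Nos1 in DHT. Of 8 matrix genes, Hapln1 and Lamb1 were listed in control and Col4a2 in DHT. Of 8 retinoid and alcohol dehydrogenases, Aldh1a1 was listed in control and Aldh1a3 in DHT. Of 3 further genes of the imprinted domain of Dlk1, Rtl1 was listed in control.

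In the CXCL12 axis (1 further gene), the Notch pathway (13) and the glucagon receptor family (8), 0 genes were listed. The small families of Asic4, Otof, Naip1, Nxnl2, Gdap1 and Cap2 hold 17 further genes. Of these, Naip2, Asic2, Dysf and Nxn were in the control gene body list and the first 3 also in the DHT list, while the other 13 were in neither. Lists without a gene among the 30 gave Slit2, Slit3, Robo1 and Robo2 of 7 Slit and Robo genes in the control gene body list, Slit3 and Robo2 also in the DHT list and Robo2 in the control promoter list. Of 16 sterol synthesis genes and 2 vanins, 0 were listed.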

How the data were processed

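H3K27me3 ChIP-seq of 3 control and 3 DHT samples was measured; groups came from the labelled agent. The authors mapped reads to mm9 with Bowtie2 2.3.4, kept unique reads and called broad peaks with MACS2 2.1.1, 1 list per group; how samples were pooled, and whether an input library served as background, is not given in the sources used here. The methods state that duplicates were removed, while the peak names carry an automatic duplicate setting. For each peak the authors deposited a score, a ratio (fold enrichment over local background), a −log10 p-value (not used) and a −log10 q-value. The largest q-value was 0.0498 in control and 0.045 in DHT. The other deposited files are gene symbols alone. Pooling removes the spread between samples, and the longer control list makes control calls more frequent.

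The members and lists were chosen with earlier results of these data known. Every one of the 30 genes is named; the nearest neighbours and the pathway genes are named where listed. Overlaps (at least 1 bp), distances, shares, 95% Wilson intervals and limits from a count of 0 (3 counts) were computed in Python 3.11.15 with numpy 2.4.6, pandas 2.3.3 and scipy 1.17.1, and plots drawn with matplotlib 3.10.9; distances were checked on simulated intervals. Older symbols were mapped to current ones. GRCm38.p6 (RefSeq) gave names, biotypes, spans, neighbours and promoters, and no peak was compared with its coordinates: a control peak on chromosome 1 ends at 197068078, past its end there. Gene body and promoter calls are the authors' and were not recomputed. Some genes are not reported here.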

Additional observations from a re-analysis of the deposited data

How the results depend on the processing

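Of 24 alternatives to 12 results, 13 moved the value, counts being held to 1.5 times and shares to their own counting interval, and 11 did not. Including the 3 symbols left out here moved the count in the control gene body list from 2 to 4, in the DHT gene body list from 1 to 3 and in the authors' list of downregulated genes with a gene body peak from 3 to 6; the promoter count remained 0. Mapping symbols through synonyms changed no count. Widening the linked regions by 10 kb gave 3 genes with a control peak in place of 0, and 3 with a DHT peak in place of 2. Widening by 100 kb gave 15 with a control and 7 with a DHT peak. Keeping peaks with a q-value of 0.01 or less left the counts without widening at 0 in control and 2 in DHT. With 2 genes on each side, 17 genes had a neighbour in the control gene body list (56.7%, against 37.8% of all) and 5 in the DHT list (16.7%, against 17.5%). The background shares of 11.9% and 4.36% were 13.6% and 4.96% for protein-coding genes, and 14.0% and 4.32% for those in the members' range of span, an alternative chosen after seeing the data. Without Dlk1 and Rian the median CpG count was 11.5.

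No paired analysis was possible because the files hold 1 pooled peak list per group and no value per replicate; fits without a replicate and with a replicate block were not run for the same reason. Depth per sample is unknown, and 30 genes allow only wide intervals.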
